A study of Mus musculus with 4 samples.

Results

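The Pnpla genes encode patatin-like phospholipase domain proteins, a family of enzymes that cut fatty acids from triglycerides, phospholipids, lysophospholipids and related esters. They were examined here as 7 genes (Pnpla1, Pnpla2, Pnpla3, Pnpla5, Pnpla6, Pnpla7 and Pnpla8) of 21887 protein-coding genes. Their members were the CpGs lying in each gene as annotated on mm10 or within 10 kb of it, with the reads of both strands summed and at least 10 reads in every library. There were 918 such CpGs of 1600691 analysed in all. The assay was reduced representation bisulfite sequencing (RRBS), which reads the DNA near restriction sites after unmethylated cytosines have been converted. The tissue was liver of 6-week-old mice of strain C57BL6/N, with 2 libraries of genotype Pnpla7+/+ (wild type, WT) and 2 of genotype Pnpla7-/- (knockout, KO), and no treatment is named. The labels do not say how the knockout allele was made, nor whether each library is from its own animal. The p-values below therefore cover only the variation seen between these libraries, which may be technical. A methylation level is the percent of reads at a CpG, or summed over the CpGs of a region, that were methylated.

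The 7 enzymes fall into groups by substrate. Pnpla2, adipose triglyceride lipase, starts the breakdown of stored triglyceride at the lipid droplet, and Pnpla3 and Pnpla5 are related lipid droplet enzymes. Pnpla6, neuropathy target esterase, and its close relative Pnpla7 are lysophospholipases that release glycerophosphocholine from lysophosphatidylcholine. Pnpla8 is a calcium-independent phospholipase A of mitochondria and peroxisomes, and Pnpla1 makes acylceramides of the skin barrier. In mammals CpG-dense gene starts are usually unmethylated and the bodies of genes usually methylated, and a level at a start is no measure of expression.

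The libraries held from 50413170 to 60535892 reads over cytosines, and the analysed CpGs had medians of 21 to 25 reads per library. In the Pnpla loci the medians ran from 18 to 44 reads. The RefSeq stretch of 250 bases before each gene start (GRCm38.p6, the assembly of mm10) was searched for the cut sites of the library protocol, CCGG (MspI) and TCGA (TaqI), which read the same on both strands and do not overlap each other. CCGG lies in 47.1% of 32851 RefSeq stretches of this length and TCGA in 18.5%, and 45.4% hold neither. The following 5 stretches are shown 5′ to 3′ in the direction of the gene, with every CpG in capitals, because they differ in how many of their CpGs could be read. The first is the knocked-out gene and the second the stretch with the most analysed CpGs. The last, with 5 CpGs, has no cut site.
Pnpla7, chr2:24975783-24976032, plus strand: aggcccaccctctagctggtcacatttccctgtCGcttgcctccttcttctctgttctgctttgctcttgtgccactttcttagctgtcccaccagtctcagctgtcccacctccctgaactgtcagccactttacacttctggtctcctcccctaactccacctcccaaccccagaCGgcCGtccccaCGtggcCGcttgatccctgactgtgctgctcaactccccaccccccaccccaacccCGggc
Pnpla6, the third of 3 annotated starts, chr8:3516613-3516862, plus strand: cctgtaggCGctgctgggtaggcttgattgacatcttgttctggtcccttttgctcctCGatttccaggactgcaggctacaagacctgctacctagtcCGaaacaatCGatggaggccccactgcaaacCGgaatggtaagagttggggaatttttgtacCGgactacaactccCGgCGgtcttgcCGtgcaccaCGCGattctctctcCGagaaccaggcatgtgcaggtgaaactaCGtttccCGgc
Pnpla3, chr15:84167566-84167815, plus strand: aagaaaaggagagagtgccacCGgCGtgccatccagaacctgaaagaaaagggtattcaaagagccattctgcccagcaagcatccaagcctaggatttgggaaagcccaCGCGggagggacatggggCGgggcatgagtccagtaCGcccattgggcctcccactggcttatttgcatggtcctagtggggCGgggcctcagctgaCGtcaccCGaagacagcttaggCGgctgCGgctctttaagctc
Pnpla2, chr7:141454938-141455187, plus strand: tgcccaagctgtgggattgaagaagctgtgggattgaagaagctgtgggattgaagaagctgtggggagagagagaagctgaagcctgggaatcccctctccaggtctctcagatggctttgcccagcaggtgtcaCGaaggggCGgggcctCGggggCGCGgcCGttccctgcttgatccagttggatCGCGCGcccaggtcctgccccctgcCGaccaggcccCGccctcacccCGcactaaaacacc
Pnpla1, chr17:28858161-28858410, plus strand: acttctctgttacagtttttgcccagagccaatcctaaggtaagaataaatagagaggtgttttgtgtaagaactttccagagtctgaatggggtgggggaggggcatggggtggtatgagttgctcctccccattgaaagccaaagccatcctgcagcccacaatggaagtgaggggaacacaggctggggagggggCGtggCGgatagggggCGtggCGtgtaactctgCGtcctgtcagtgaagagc
The Pnpla6 stretch holds 14 CpGs with 4 CCGG and 2 TCGA sites, and 11 of its CpGs were analysed. Their level was 0.221% and 0% in the WT libraries (replicate 1, then replicate 2, here and below) and 0.264% and 0% in the KO libraries, over 379 to 493 reads per library. The Pnpla7 stretch holds 6 CpGs and 1 CCGG, with 4 CpGs listed in any library and none analysed. Pnpla3 has 11 CpGs and 1 CCGG there, with 6 CpGs listed and none analysed. Pnpla2 has 12 CpGs and Pnpla1 has 5, and neither stretch holds CCGG or TCGA or a listed CpG. The median over all such stretches was 6 CpGs.

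The loci differed widely in level among themselves. In WT, summed over each gene and 10 kb either side, Pnpla1 was highest at 72.3% ± 0.465 (SD, n = 2), followed by Pnpla6 at 42.3% ± 2.52. Pnpla7 at 35.0% ± 2.08, Pnpla3 at 32.8% ± 2.02 and Pnpla5 at 32.0% ± 1.96 came next, and each overlapped its neighbour in this order. Pnpla2 stood below them at 25.4% ± 0.601, and Pnpla8 was lowest at 9.74% ± 0.727. Of the 918 CpGs, 52.0% had a mean level below 20% and 34.0% a level above 80%, against 45.0% and 36.4% of all analysed CpGs. The remaining 14.1%, or 129 CpGs, were of intermediate level, against 18.6% of all. The analysed CpGs lay in different places in each locus: Pnpla8 had 47 of its 55 CpGs within 1 kb of its start, and Pnpla5 had none there.

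**Figure D1:**
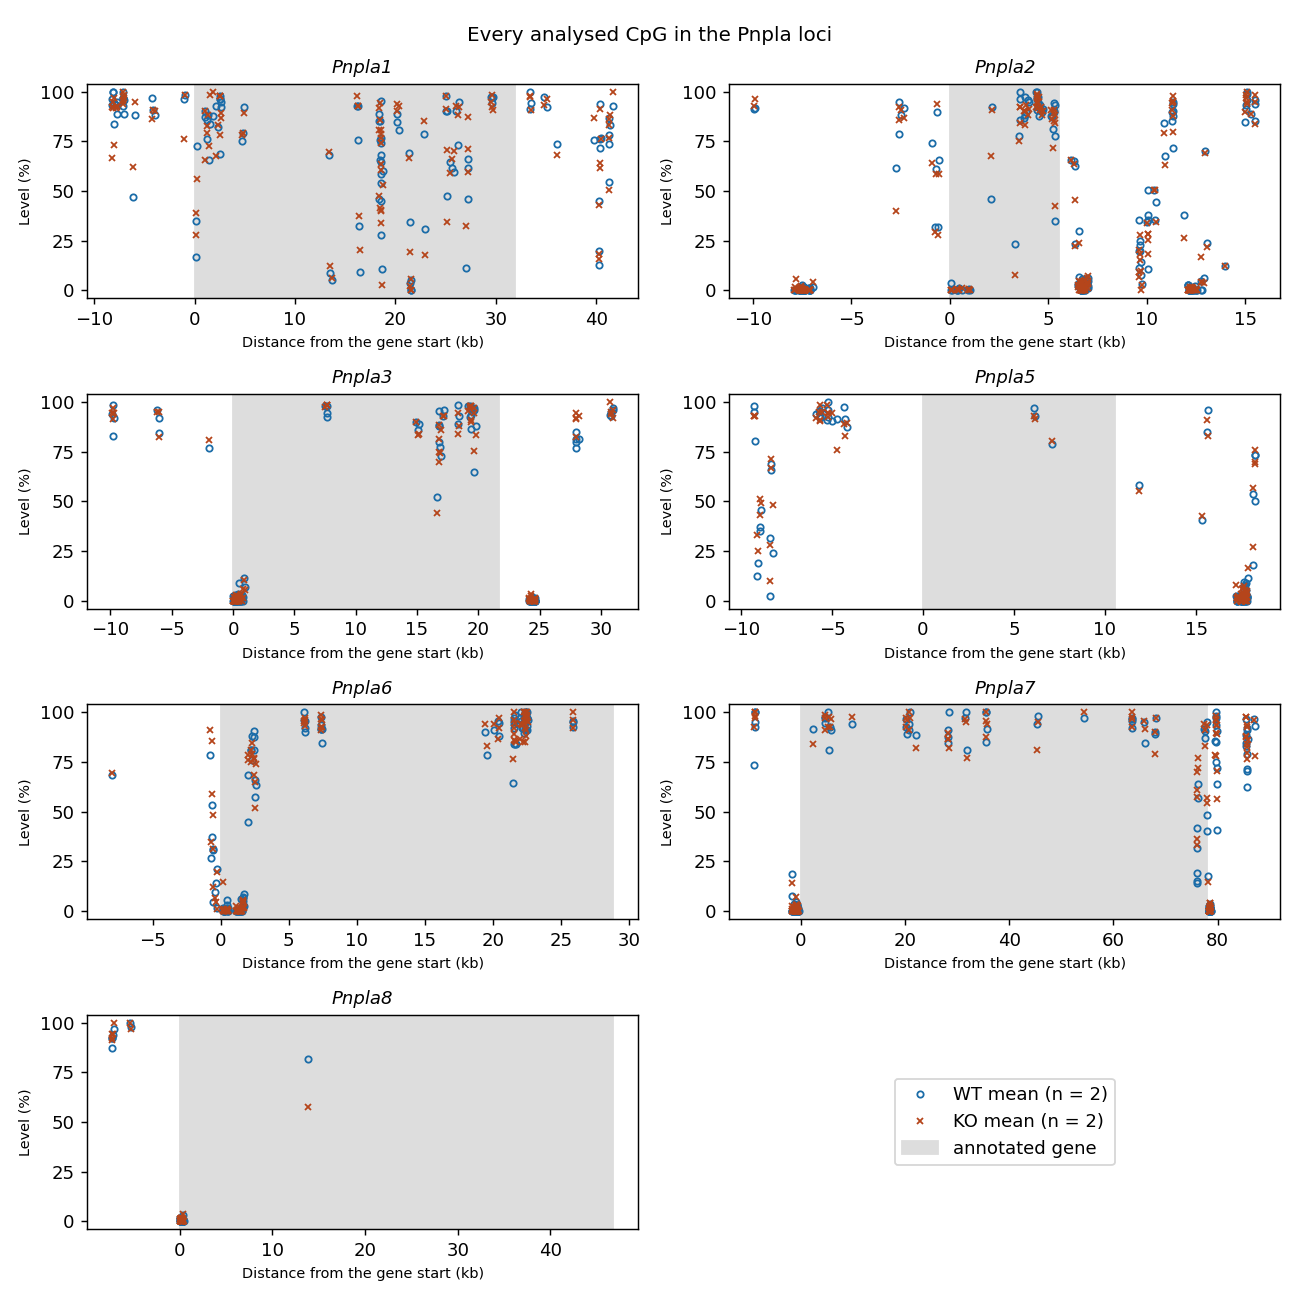
Mean methylation level (%) of every analysed CpG in WT (open circles) and KO (crosses), n = 2 libraries each, against its distance from the gene start in kb, with the annotated gene in grey. Levels drop to near 0 at the starts of Pnpla2, Pnpla3, Pnpla6 and Pnpla8, before the start of Pnpla7 and at some neighbouring genes. Most other CpGs lie high, and Pnpla1 has many CpGs between.

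Around the gene start, taken as 1 kb either side of the most upstream annotated start, the members split into unmethylated and methylated. Pnpla7, on chromosome 2 from 24975990 to 25054072, had 0.426% and 0.466% in WT and 0.510% and 0.590% in KO over 39 CpGs. All 39 lie before its start, the nearest 434 bp away, toward Mrpl41, a mitochondrial ribosomal protein gene on the other strand whose own start is 935 bp from that of Pnpla7. All 4 libraries were near 0, and no CpG in the gene's first 1 kb had 10 reads in every library.

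Pnpla8, on chromosome 12 from 44269132 to 44315936, had 0.0782% and 0.623% in WT and 0.374% and 0.430% in KO over 47 CpGs. At 30 of these no methylated read was seen in any library. Pnpla3, on chromosome 15 from 84167776 to 84189521, had 1.07% and 0.972% in WT and 0.922% and 0.775% in KO over 46 CpGs, all of them after the start. The CpGs read in these 3 windows were therefore unmethylated in both genotypes, with the highest single CpG at a mean of 11%. Those of Pnpla7 lay 434 bp or more before its start, so that start itself was not measured.

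Pnpla2, on chromosome 7 from 141455188 to 141460743, held both kinds of CpG, with 22.2% and 21.1% in WT and 18.7% and 19.2% in KO over 16 CpGs. The 1-kb tile before the start had 60.8% and 56.1% in WT against 54.1% and 56.4% in KO, and the tile that opens the gene had 0.365%, 0.314%, 0.509% and 0.513% in the same order. Pnpla6, on chromosome 8 from 3515235 to 3544267, had 9.50% and 9.33% in WT and 12.6% and 13.2% in KO over 29 CpGs. Both KO libraries were thus below both WT libraries at Pnpla2 and above them at Pnpla6. Within 500 bp of the Pnpla6 start the difference was -0.537 percentage points in place of 3.52, so the higher KO value came from CpGs farther off, described below.

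Pnpla1, on chromosome 17 from 28858286 to 28890308, was the methylated one, at 62.4% and 55.0% in WT and 59.1% and 51.7% in KO over 5 CpGs. The genotypes overlapped. Its WT level stood at the 91.6th percentile of the 11712 start windows tested, that of Pnpla7 at the 19.6th. Pnpla5, on the minus strand of chromosome 15 from 84112621 to 84123175, had 1 listed and no analysed CpG in its start window. None of the 6 measured start windows was called by the moderated quasi-binomial model on limma's shrunken spread. A call needed a Benjamini-Hochberg adjusted p under 0.05 and 10 percentage points. The smallest unadjusted p was 0.00365, for Pnpla6 (adjusted p = 0.545), and the others had adjusted p from 0.864 to 0.997. Of all start windows 0.0171% were called.

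**Figure D2:**
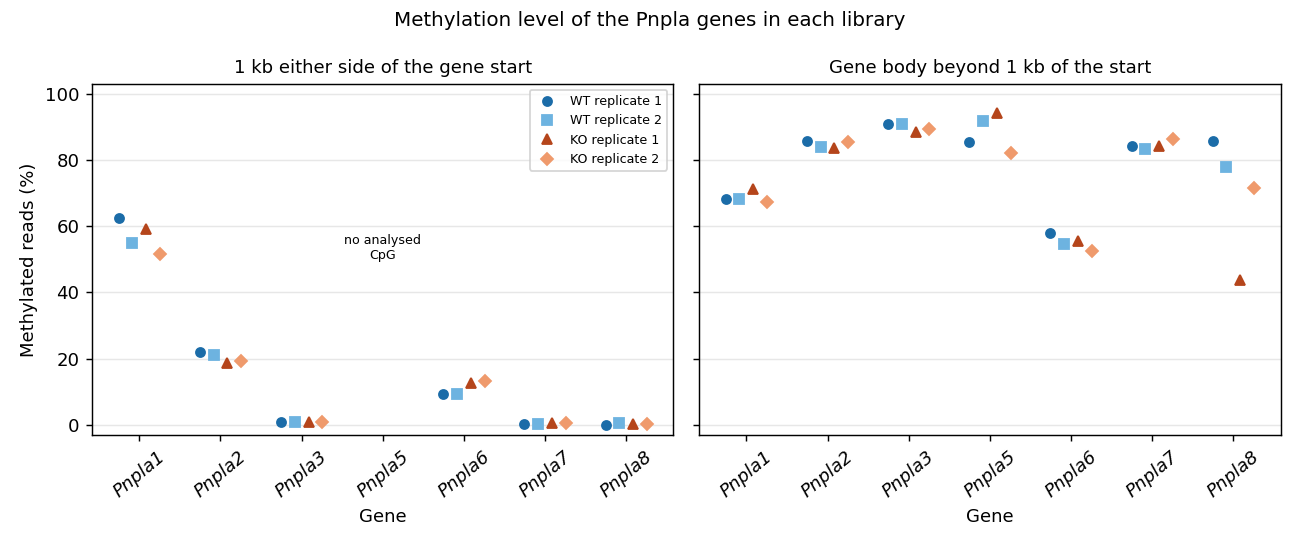
Methylated reads (%) in each of the 4 libraries, summed over the analysed CpGs within 1 kb of the gene start (left) and over the gene body beyond 1 kb of the start (right), 1 point per library. In the start windows Pnpla3, Pnpla7 (read only before its start) and Pnpla8 lie near 0 and Pnpla1 above 50% in every library. The bodies lie above 50% except for 1 KO library of Pnpla8, where a single CpG was analysed.

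Beyond 1 kb of the start the gene bodies were mostly methylated. Pnpla3 had 90.9% in each WT library and 88.3% and 89.3% in KO (30 CpGs). Pnpla2 had 85.6% and 84.0% in WT and 83.5% and 85.4% in KO (36 CpGs), and Pnpla7 had 84.0% and 83.1% in WT and 84.2% and 86.4% in KO (52 CpGs). The KO libraries lay below both WT libraries at Pnpla3 and above them at Pnpla7, and at Pnpla2 the genotypes overlapped.

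Pnpla1, the skin acylceramide enzyme, had a less methylated body, with 68.2% and 68.3% in WT and 71.3% and 67.2% in KO (72 CpGs). Pnpla6, the lysophospholipase related to Pnpla7, had 57.9% and 54.7% in WT and 55.5% and 52.4% in KO (95 CpGs), part of which is the unmethylated last of its starts. Pnpla5 was read at 3 body CpGs, with 85.5% and 91.7% in WT and 94.2% and 82.1% in KO. In each of these the genotypes overlapped.

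Pnpla8 was read at a single CpG of its body outside the start, position 44283060 of chromosome 12, with 85.7% of 14 reads and 77.8% of 18 reads in WT and 43.8% of 16 reads and 71.4% of 14 reads in KO. Both KO libraries were lower there, and the difference was not called (adjusted p = 0.743, moderated quasi-binomial model, limma). Over whole bodies none of the 7 members and 0% of all 17412 bodies were called, and over loci none of 7 and 0% of 19177. No body or locus of the 7 had an unadjusted p under 0.05 in this model. With limma on log2 ratios of reads, and with the other prior for the spread, 0 bodies and 0 loci of any gene were called.

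Locus differences were small in either direction, from -2.39 percentage points at Pnpla3 to 0.996 at Pnpla5. They changed with the weight given to each CpG. With every CpG weighted equally, Pnpla3 differed by 0.179 points in place of -2.39, Pnpla6 by 0.777 in place of -1.07, Pnpla2 by -0.724 in place of 0.559, and Pnpla7 by 1.45 in place of 0.210. The direction at Pnpla2, Pnpla3 and Pnpla6 thus changed with the weighting.

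In 1-kb tiles with at least 3 analysed CpGs, 1 of 82 tested tiles in the Pnpla loci was called, against 0.0874% of all 163610 tiles (143 called, 109 of them higher in KO). It lies in Pnpla7, on chromosome 2 from 25052001 to 25053000 near the annotated end of the gene. Exons were not analysed here, so its place within the gene is given only by distance. Its level was 26.4% in WT replicate 1 and 35.6% in WT replicate 2, and 49.8% in KO replicate 1 and 62.9% in KO replicate 2, from 140, 180, 217 and 202 reads. Both KO libraries were above both WT libraries, a rise from 31.0% ± 6.45 to 56.3% ± 9.26 (SD, n = 2), or 25.3 percentage points (adjusted p = 0.0332, moderated quasi-binomial model, limma). The exact 95% Clopper-Pearson interval was 28.6% to 43.0% in WT replicate 2 and 42.9% to 56.6% in KO replicate 1, the closest pair. It takes the summed reads as independent, though a read over several CpGs counts at each. The interval is therefore too narrow even for counting error, and it leaves out variation between libraries.

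The 7 CpGs of this tile span 271 bp, from 1989 to 1719 bp before the gene's end. In every library the level was lower at the first of them than at the last. At the first CpG it was 8.70% and 21.7% in WT and 23.1% and 43.5% in KO. At the third, 1933 bp before the end, it was 9.09% and 28.9% in WT and 50% and 64.4% in KO, the largest difference of the 7 (38.2 points). At the last it was 52.2% and 61.9% in WT and 66.7% and 77.8% in KO. All 7 were higher in KO, by 13.0 to 38.2 points, and at 6 of 7 both KO libraries were above both WT libraries. The exception, 1743 bp before the end, had 71.4% in WT replicate 1 against 69.0% in KO replicate 1. No single one was called (smallest adjusted p = 0.743), and neighbouring CpGs shared reads, as at 1923 and 1909 bp before the end, where the depth was the same in every library.

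**Figure D3:**
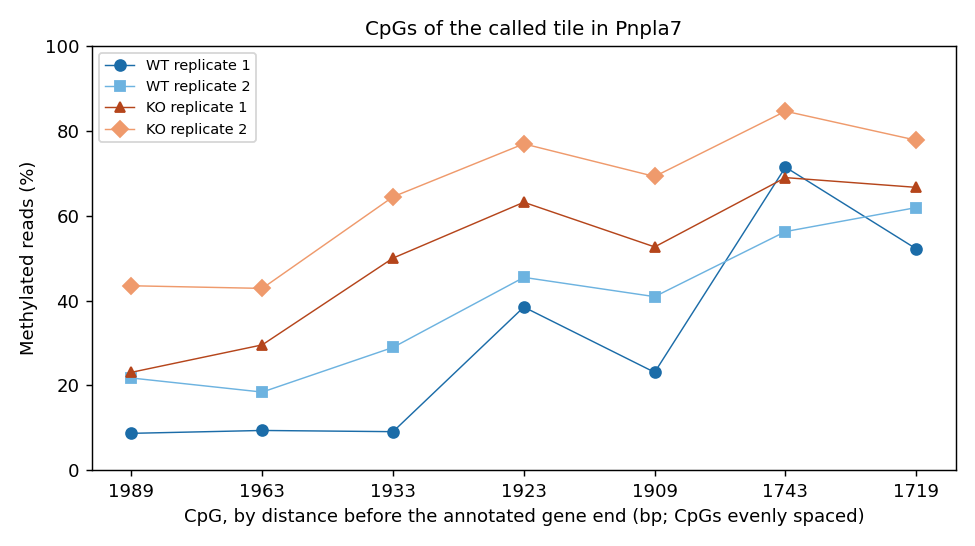
Methylated reads (%) at the 7 analysed CpGs of the called Pnpla7 tile in each library, ordered by distance before the annotated gene end in bp and evenly spaced. Both KO libraries lie above both WT libraries at 6 CpGs, and WT replicate 1 crosses KO replicate 1 at the CpG 1743 bp before the end.

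The other tested tiles that lie in the gene alone differed by -4.42 to 5.85 points, and none was called. The next tile, from 25053001, had 89.1% and 82.8% in WT and 83.4% and 86.0% in KO, and the tile over the gene's end and the start of Nsmf, from 25054001, had 1.72% and 1.91% in WT and 2.02% and 2.58% in KO. Outside the gene, 3 tiles had an unadjusted p under 0.05 and were not called. The tile from 24967001 in Dph7, a gene of diphthamide synthesis, had 92.3% and 91.1% in WT and 96.8% and 98.0% in KO (adjusted p = 0.735), and 2 tiles in Nsmf, a gene of signalling from synapse to nucleus, had adjusted p of 0.786 and 0.790. In the whole Pnpla7 locus 15 of 16 CpGs of intermediate level were higher in KO (median 14.7 points), where all analysed CpGs of that class had 54.2% higher and a median of 1.14. At 9 of the 16 both KO libraries were above both WT libraries, against 19.5% of all analysed CpGs of that class. However, 7 of the 16 and 6 of the 9 are CpGs of the called tile. These counts and the median thus largely repeat that call and are no separate result. The animals differ by genotype at this very locus, so a difference that comes with the altered allele or with DNA linked to it cannot be told apart from one that arises without Pnpla7 protein. Leaving out any 1 of the 4 libraries ended the call: the difference was 20.8 points when WT replicate 1 was left out and 29.9 when WT replicate 2 was. It was 31.9 with KO replicate 1 omitted and 18.8 with KO replicate 2 omitted. Each of these fits leaves 1 library in a genotype and called next to no tile anywhere. The loss of the call in them therefore says little of this tile. The call also ended with 20 reads as the minimum (26.0 points, adjusted p = 0.164), with 5 CpGs per tile (adjusted p = 0.103), without the CpG that differed most (22.6 points, adjusted p = 0.120), with limma on log2 ratios (adjusted p = 0.894) and with a replicate block (adjusted p = 0.981), both of which called 0 tiles in the genome.

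Reads over Pnpla7 itself gave no check of the genotype. Its share of the library's reads over CpGs, per 1000000 reads, was 28.5 and 29.3 in WT and 29.0 and 29.0 in KO. Of 89 CpGs in it with at least 10 WT reads, none had 0 reads in KO, and the lowest ratio of KO to WT depth was 0.274. These values do not show which part of the gene the allele alters.

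The remaining 81 tiles were not called, and all differences lay between -6.63 and 15.4 points. Pnpla6 came closest, with a tile on chromosome 8 from 3514001 to 3515000, before the Pnpla6 start and inside the annotated end of Mcoln1, a lysosomal cation channel gene. It had 44.2% and 34.8% in WT and 54.8% and 55.0% in KO over 7 CpGs, a difference of 15.4 points (adjusted p = 0.10, moderated quasi-binomial model, limma). All 7 CpGs were higher in KO, among them the one at position 3514762, with 50% and 57.1% in WT and 81.8% and 89.5% in KO. The adjoining tile over the Pnpla6 start had 2.38% and 2.37% in WT and 1.91% and 1.90% in KO. The intermediate tile thus lies next to an unmethylated gene start that did not differ by more than 0.469 points.

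In Pnpla1 the tile from 28885001, inside the gene, had 61.8% and 46.3% in WT and 66.2% and 69.9% in KO (adjusted p = 0.649). The tile of Pnpla5 with the smallest p, from 84132001 in the uncharacterised gene Gm33432, had 38.6% and 43.5% in WT and 47.4% and 53.8% in KO (adjusted p = 0.655). That of Pnpla3, from 84195001 in Samm50, a gene of the mitochondrial outer membrane, had 76.9% and 84.7% in WT and 86.3% and 92.4% in KO (adjusted p = 0.767). In these 3 tiles, which were picked by p, both KO libraries were above both WT libraries. With 1 library left out their differences ranged from 6.22 (without WT replicate 2) to 21.7 (without WT replicate 1) at Pnpla1, from 6.28 (without KO replicate 2) to 12.7 at Pnpla5 and from 4.67 (without WT replicate 1) to 12.4 at Pnpla3, where all 4 libraries gave 13.9, 9.49 and 8.55.

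At Pnpla2, the triglyceride lipase, the tile with the smallest p, from 141465001 in Cracr2b beyond the gene's end, had 37.8% and 40.7% in WT and 37.4% and 27.9% in KO (adjusted p = 0.799). Both KO libraries were below both WT libraries, KO replicate 1 by little: the difference was -6.63 points with all libraries and -1.92 without KO replicate 2. Of 30 CpGs of intermediate level in the locus, 23 were lower in KO (median -3.60 points), and at 11 both KO libraries were below both WT libraries, against 14.6% of all analysed CpGs of intermediate level. Of these 30 CpGs, 4 lie in the gene, 6 before it and 20 beyond it. Pnpla5 had 14 of 17 such CpGs higher in KO (median 3.20 points) and Pnpla6 10 of 16 (median 4.32). Pnpla1 had 23 of 43 (median 0.118) and Pnpla3 3 of 6 (median 0.559). Among these, 5 CpGs at Pnpla5 and 5 at Pnpla6 lie in the tiles named above, which were picked by p. Over all analysed CpGs of intermediate level 54.2% were higher in KO (median 1.14 points). The tile of Pnpla8 with the smallest p, from 44261001 before the gene, had 91.5% and 92.6% in WT and 94.6% and 91.8% in KO, and the libraries overlapped.

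**Figure D4:**
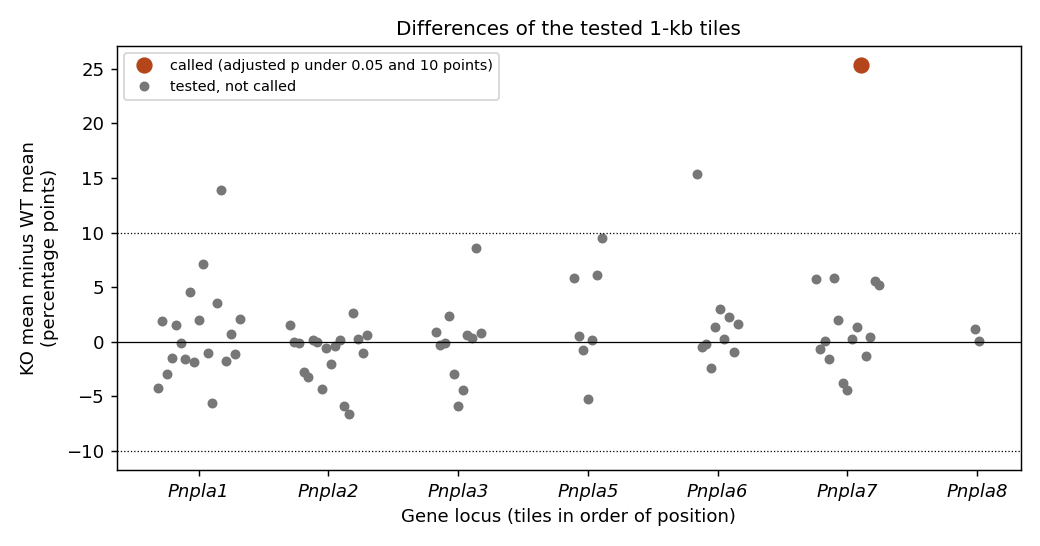
KO mean minus WT mean (percentage points) for each of the 82 tested 1-kb tiles, by gene locus and in order of position, with dotted lines at 10 points either way. The called Pnpla7 tile stands at 25.3, and the other 81 tiles lie between -6.63 and 15.4.

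Over the family, 8 of 82 tiles (9.76%) had an unadjusted p under 0.05 in the moderated quasi-binomial model, against 6.31% of all tiles. All 8 were higher in KO, and the direction over all such tiles of the genome was not counted. The Pnpla7 locus held 4 of the 8 among its 15 tested tiles, and Pnpla1, Pnpla3, Pnpla5 and Pnpla6 held 1 each. Both KO libraries were above both WT libraries in 24.4% of the tiles and below them in 17.1%, against 19.5% and 14.9% of all tiles. The median tile difference was 0.150 points, against 0.177 over all tiles, and 53.7% were higher in KO against 54.0%. None of the 705 tested CpGs was called, against 0.000712% of all 1263975. Of the 705, 41 (5.82%) had an unadjusted p under 0.05 in the same model, 26 of them higher in KO and 15 lower. The share over all tested CpGs was not counted. With limma on log2 ratios 192 CpGs of the genome were called, and with the other prior for the spread 126. None of the 705 was among them. Summed over all its intermediate CpGs, the family resembled the background, with 55.8% higher in KO against 54.2% and a median of 1.17 points against 1.14.

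Pnpla3 and Pnpla5 lie near each other on chromosome 15, within the span from 73474421 to 86723329 that held 34 of the 36 CpGs in the genome that were at most 10% methylated in both WT libraries and at least 70% in both KO libraries (5 or more reads in each). None of the 154 CpGs examined in the Pnpla3 locus and none of the 110 in the Pnpla5 locus was of this kind, nor was any in the other 5 loci. The 36 were found among 2352469 CpGs examined in the genome, a share at which a locus of this size would usually hold none. The share within the span was not counted, so these counts do not set the Pnpla loci apart. The nearest CpG of this kind lay 338582 bp from the Pnpla3 locus and 404928 bp from that of Pnpla5.

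Partners of these enzymes showed no called feature. Of 25 genes of lipolysis and the lipid droplet, among them Abhd5 and G0s2, the activator and the inhibitor of Pnpla2, 0 of 195 tiles, 0 of 23 loci and 0 of 14 start windows were called, against 0.0874%, 0% and 0.0171% of all. An unadjusted p under 0.05 was found at 20 tiles (10.3%), 2 loci (8.70%) and 1 window (7.14%), against 6.31% of all tiles, 4.14% of all loci and 6.30% of all windows. The locus with the smallest p was that of Fitm2, which takes part in lipid droplet formation, at 40.8% and 40.6% in WT and 37.5% and 32.4% in KO (adjusted p = 0.999). Lipe, hormone-sensitive lipase, followed with 56.0% and 55.7% in WT and 58.3% and 60.4% in KO (adjusted p = 0.999). The median locus difference of this list was -0.152 points, against -0.0708 over all loci.

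Of 31 genes of lysophospholipid and glycerophosphodiester turnover, 0 of 270 tiles, 0 of 31 loci and 0 of 20 start windows were called, against the same shares of all. An unadjusted p under 0.05 was found at 26 tiles (9.63%), 1 locus (3.23%) and no window. Over all features the shares were 6.31% of tiles, 4.14% of loci and 6.30% of windows. Abhd12, a lysophosphatidylserine lipase, had 41.7% and 39.1% in WT and 35.3% and 37.5% in KO, and Pla2g12b, a secreted phospholipase A2-like protein, had 39.5% and 40.6% in WT and 27.5% and 31.6% in KO over 10 CpGs (adjusted p = 0.999 for both). The median locus difference of the list was -0.00933 points. With the other prior, no tile of either list was called, where 129 tiles of the genome were; limma on log2 ratios called 0 tiles anywhere and so says nothing of the lists.

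The 3 protein-coding genes whose locus level over the 4 libraries was nearest to that of Pnpla7, by Euclidean distance among 19176 genes, were Hdac5 (0.987 percentage points), Kremen1 (0.989) and Prdm11 (1.04). Hdac5, for example, had 36.1% and 34.0% in WT and 34.4% and 34.9% in KO, where Pnpla7 had 36.4% and 33.5% in WT and 34.9% and 35.5% in KO. Start windows of marker genes were also read. Low levels are common in such windows: that of Pnpla2, at 21.6% in WT, stood at the 85.1th percentile of all start windows tested. The counts below therefore do not single out a cell type. Of 7 measured hepatocyte markers of 14, 6 were below 20% in both genotypes, against 1 of 3 measured leukocyte markers of 8, 0 of 3 cholangiocyte markers of 5 in WT (1 in KO), 1 of 1 endothelial, 2 of 2 stellate and 0 of 1 adipocyte markers. Averaged over its windows, the hepatocyte list lay at 18.5% to 19.1% in WT and 19.8% to 22.4% in KO, and the leukocyte list at 57.9% to 63.4% and 61.0% to 62.1%. An unmethylated window is no measure of how many cells of a type were present, and the part of cell mixture in the differences above was not tested.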

How the data were processed

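Liver DNA was digested by TaqI, then MspI, and bisulfite converted during library preparation, per the labels' protocols. For each of 4 libraries the authors deposited a track of methylation levels (a signed fraction per cytosine, the sign marking the strand) and one of read depth, written by GBSA on mm10, per the file headers. BWA 0.7.12 and MACS appear, with no stated role, per the submitters' processing notes. No filter is given in the sources used here. Level times depth was whole at 100% of positions (tolerance 1e-06), which gave methylated reads. At 10 reads with 5 methylated, the exact 95% interval is 18.7% to 81.3%, and 0 methylated reads would still permit a level of 30%; amplified reads are not independent molecules, so such limits cover counting error only.

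Strands were summed per CpG. Reads of CpGs with 10 or more reads in every library were summed over 1-kb tiles, gene loci, bodies and start windows with 3 or more CpGs, so a read over several CpGs counts at each: 189 of 726 neighbouring pairs within 100 bp in the Pnpla loci had the same depth in all libraries. Each feature was fitted with a quasi-binomial model, its Pearson dispersion shrunk by limma 3.58.1 over all features and held at 1 or above, with a two-sided F test and Benjamini-Hochberg adjustment over all features. Features at 0% or 100% in all libraries could not be tested. Gene ends and sequences came from RefSeq (GRCm38.p6); 17492 of 21887 coding genes, all 7 members among them, had a start. The text names all members, every called tile or CpG of theirs (otherwise the tile with the smallest p), called list genes or else the 2 with the smallest locus p, and 3 genes like Pnpla7. The members, lists and rule were chosen with earlier results of these data known. Of 2 libraries against 2, an exact permutation test cannot go below p = 0.333. Model and scripts were run on simulated data, and the share of true changes they recovered is not given here. Coverage minimums, tests, priors, tile shape, window width, a replicate block and each library left out were the alternatives. R 4.3.3, its data.table package (version 1.17.8), Python 3.11.15 and matplotlib 3.10.9 were used.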

Additional observations from a re-analysis of the deposited data

How the results depend on the processing

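Of the 1 called tile, none was called with 20 reads as the minimum, limma on log2 ratios (0 tiles in the genome), 5 or more CpGs per tile, without the CpG that differed most, or without any 1 library (0 in each of these 4, where the lone library of a genotype is assumed to vary like the others and 0 to 2 tiles of the genome were called). It stayed at 1 with 5 reads and with the other prior. It also stayed at 1 with no minimum difference, 20 points, the gene body alone and tiles shifted by 500 bp. No minimum difference, 20 points and the gene body alone reuse the same fit, where the tile differed by 25.3 points, so they could not end the call. The shifted tile held the same 7 CpGs and is no separate check. With the replicate block 0 tiles and 0 CpGs were called anywhere. Deviations of same-numbered libraries had a correlation of -0.0102 over 45320 tiles, and nothing in the labels pairs them. No CpG of the Pnpla loci, no locus, body or start window of a member, and no tile of the 2 lists was called under any alternative run for it (those for the lists were chosen after seeing the data). With 5 reads, the block or any 1 library left out, 0 CpGs were called in the genome, so these say nothing of the CpGs.

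Directions of these uncalled differences turned as follows, in percentage points, and the cause was not tested. With 5 reads the loci of Pnpla1 and Pnpla7 gave 0.487 and -0.334 and the body of Pnpla8 gave 0.379. With 20 reads these were 1.75, -0.239 and 0.0924, and the start windows of Pnpla3 and Pnpla7 gave 0.0151 and -0.199; the body of Pnpla5 then had too few CpGs. With CpGs weighted equally the loci of Pnpla2, Pnpla3 and Pnpla6 gave -0.724, 0.179 and 0.777. With 5 kb either side, Pnpla1, Pnpla2, Pnpla5 and Pnpla7 gave 0.332, -0.850, -1.49 and -0.935. Start windows of 500 bp gave 0.0473 at Pnpla2, -0.537 at Pnpla6 and -0.0899 at Pnpla7, and those of 2 kb gave 0.280 at Pnpla1 and -0.220 at Pnpla7. Leaving out 1 library, loci ranged from -1.96 to 1.40 (Pnpla1), -0.523 to 1.64 (Pnpla2), -0.389 to 2.38 (Pnpla5), -2.85 to 0.710 (Pnpla6) and -1.26 to 1.68 (Pnpla7). Bodies ranged from -1.24 to 3.06 (Pnpla1) and -6.42 to 5.64 (Pnpla5), start windows from -7.02 to 0.405 (Pnpla1) and -0.221 to 0.324 (Pnpla8). The uncalled tile before Pnpla8 ranged from -0.225 to 2.60 with 1 library left out. With 5 CpGs per tile the tiles named for Pnpla1, Pnpla3 and Pnpla8 had too few.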
